A study of Homo sapiens with 20 samples.

Results

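The response of acute myeloid leukemia (AML) cells to tumor necrosis factor alpha (TNFa) was measured by RNA sequencing in Kasumi-1, NOMO-1 and THP-1, 3 established lines. The comparison held 6 of the 20 libraries of the series, chosen by their labels: 1 untreated library and 1 library from cells given TNFa at 10 ng/ml for 24 h in each line. The remaining libraries came from the same lines after 10 ng/ml interferon gamma (IFNg) for 24 h or both cytokines together, and from the endothelial lines iHUVEC and TIME under the same 4 conditions. The labels name no genetic change made in any line. Each line stands for a single leukemia, and each condition was sequenced once per line, which makes the line the replicate. The errors pool the spread of responses between lines over all 20 libraries, AML and endothelial. They are not the spread of the 3 AML changes alone.

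TNFa binds the receptors TNFR1 and TNFR2, and adaptor and ubiquitin ligase complexes at the receptor switch on the IκB kinases. These kinases mark the inhibitor IκBα for destruction, which frees the transcription factor NF-κB to enter the nucleus. Many NF-κB targets are inhibitors of the same pathway, so the response limits itself, while others are chemokines, adhesion molecules and survival genes. In monocytic cells TNFa is best known as a driver of inflammation, and in myeloid progenitors it can favour monocytic maturation.

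Values were in the length-corrected unit TPM, rescaled to a total of 1000000 in each library after removing 13 mitochondrially encoded genes. These genes held 76.0% of the listed TPM of untreated NOMO-1 and 80.4% with TNFa, 15.6 and 17.4% in Kasumi-1, and 24.8 and 19.8% in THP-1. Depth is unknown, because TPM keeps no read totals, and between 11831 and 12426 genes reached 1 TPM in the 6 libraries. All 10 hematopoietic markers were at 1 TPM or more in all 6 libraries, with a summed level of 888 to 4524 TPM. The 6 endothelial markers summed to between 1.35 and 37.5 TPM, PECAM1 alone stood at 0.932 to 34.8 TPM, and CDH5 was at 0 in all 6 libraries. Sums were 0.405 to 19.3 TPM for 5 lymphoid markers, 0.318 to 130 TPM for 4 epithelial and 0.0974 to 10.9 TPM for 4 fibroblast markers. The lymphoid CD79A reached 18 TPM and the epithelial EPCAM 129 TPM, both in untreated Kasumi-1. The 6 monocytic markers summed to 41.4 to 1244 TPM without and 261 to 2004 TPM with TNFa. The 5 granulocytic progenitor markers summed to 2048 to 10607 TPM without and 78.7 to 9048 TPM with TNFa. The part of these shifts in the results below was not tested, and in bulk RNA a change in the share of cells of a kind cannot be told apart from a change in RNA per cell.

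Changes are differences of log2(TPM + 1), TNFa minus untreated, with the moderated standard error of limma. They come from a fit of all 20 libraries with the line as a term, and a gene was called at a Benjamini-Hochberg adjusted p under 0.05. Of 15941 genes tested, 45 were called (0.282%), 44 of them higher with TNFa (0.276%) and 1 lower (0.00627%). All 45 moved in the same direction in all 3 lines. In 35 of the 44 the 3 TNFa libraries lay above all 3 untreated libraries, as did those of 251 of all tested genes (1.57%). The increases ranged from 0.95 to 5.67 log2, with a median of 2.08. At an unadjusted p under 0.05 there were 1542 genes (9.67%), 814 higher and 728 lower. The count rests on the shared estimate of spread: it was 16 with the 12 AML libraries alone (0.109% of 14711 genes), 15 of them among the 44. It was 2, TNFAIP3 and ICAM1, without iHUVEC and likewise without TIME, and 18 without THP-1. Without Kasumi-1 it was 57 and without NOMO-1 44, and the 7 genes ICAM1, RELB, TNFAIP3, RTN1, NFKBIE, SLC2A6 and FTH1 were called whichever AML line was left out. With either endothelial line left out, the other alone adds no spread to the errors. Both of these runs draw each gene's spread from the AML libraries, so they repeat the same check and do not test separate lines.

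Neither TNFa receptor gene was called. TNFRSF1A, which encodes TNFR1, stood at 132, 79.5 and 52.7 TPM in untreated Kasumi-1, NOMO-1 and THP-1 and at 103, 72.1 and 52.4 TPM with TNFa (-0.17 ± 0.16, limma adjusted p = 0.781). TNFRSF1B, which encodes TNFR2, stood at 5.32, 36.6 and 14.3 TPM and at 7.14, 59.1 and 38.3 TPM (0.80 ± 0.26, limma adjusted p = 0.352). TNFR1 transcripts were therefore present in every line, and the groups overlapped for both receptors. TNF itself was below the filter on low values, at 1.05 TPM in untreated Kasumi-1 and 0 in the other 5 libraries. Of 26 tested genes of the receptors and proximal signalling, 2 were called (7.69%), both higher, and the median change of 0.17 lay close to that of all genes (-0.02). They were IKBKE, an IκB kinase relative that also phosphorylates interferon regulatory factors, and TRAF3, an adaptor that restrains the noncanonical branch of the pathway. IKBKE went from 14.1, 32.3 and 24.1 TPM to 70, 77.2 and 63.7 TPM (1.61 ± 0.29, limma adjusted p = 0.042). TRAF3 went from 13.2, 9.63 and 10.8 TPM to 25.4, 28.4 and 25.2 TPM (1.17 ± 0.21, limma adjusted p = 0.042). The TNFa libraries lay above all untreated libraries for both genes, but neither call held with the 12 AML libraries alone (adjusted p = 0.202 and 0.234) or without THP-1 (0.255 for both). Without Kasumi-1 the adjusted p of IKBKE was 0.120, and without NOMO-1 that of TRAF3 was 0.325.

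The inhibitors of NF-κB were among the largest increases. Of 17 tested inhibitor and feedback genes 4 were called (23.5%), all higher, 13 had higher values in all 3 lines, and the median change was 1.15. TNFAIP3, which encodes the ubiquitin-editing enzyme A20 that shuts down signalling at the receptor, stood at 3.73, 2.02 and 4.18 TPM in untreated Kasumi-1, NOMO-1 and THP-1. With TNFa it stood at 152, 75.7 and 66.7 TPM (4.46 ± 0.38, limma adjusted p = 3.8e-04). The lowest TNFa library was many times above the highest untreated library. NFKBIA, which encodes IκBα, went from 20.5, 98 and 31.2 TPM to 470, 779 and 285 TPM (3.53 ± 0.41, limma adjusted p = 0.004). NFKBIE, which encodes the related inhibitor IκBε, went from 16.4, 37.8 and 31.9 TPM to 73.8, 229 and 103 TPM (2.11 ± 0.26, limma adjusted p = 0.005). BCL3, an IκB family member that acts in the nucleus as a cofactor of NF-κB, went from 1.84, 23.3 and 4.45 TPM to 29.1, 136 and 45.7 TPM (3.0 ± 0.39, limma adjusted p = 0.006). In all 4 genes the groups did not overlap. All 4 were called with the 12 AML libraries alone, whereas without THP-1 NFKBIA (adjusted p = 0.060) and BCL3 (0.091) missed the threshold. Among those not called, the ribonuclease gene ZC3H12A had higher values in all 3 lines (1.51 ± 0.31, limma adjusted p = 0.085). TNFAIP2, a classic TNFa-induced gene, differed by 0.15 log2 in THP-1, 1.21 in NOMO-1 and 5.33 in Kasumi-1.

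Of 5 tested NF-κB subunit genes 2 were called (40%), both higher, at a list median of 1.39. They were RELB and NFKB2, the subunits of the noncanonical branch. RELB went from 5.6, 18.6 and 9.43 TPM to 71.3, 162 and 72.9 TPM in Kasumi-1, NOMO-1 and THP-1 (3.11 ± 0.31, limma adjusted p = 7.8e-04). NFKB2, the precursor of the subunit p52, went from 9.99, 66.4 and 23.5 TPM to 170, 504 and 130 TPM (3.09 ± 0.48, limma adjusted p = 0.018). Every TNFa library was above every untreated library for both genes. NFKB1, the precursor of p50, had higher values in all 3 lines and missed the threshold (1.39 ± 0.27, limma adjusted p = 0.064). RELA (0.38 ± 0.30, adjusted p = 0.721) and REL (0.03 ± 0.29, adjusted p = 1.000) had smaller estimates, and REL was lower in NOMO-1, at 6.97 TPM without and 4.43 TPM with TNFa. No test compared the subunits with each other. RELB was called with the 12 AML libraries alone (adjusted p = 0.012) and NFKB2 was not (0.097, and 0.092 without THP-1).

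**Figure D1:**
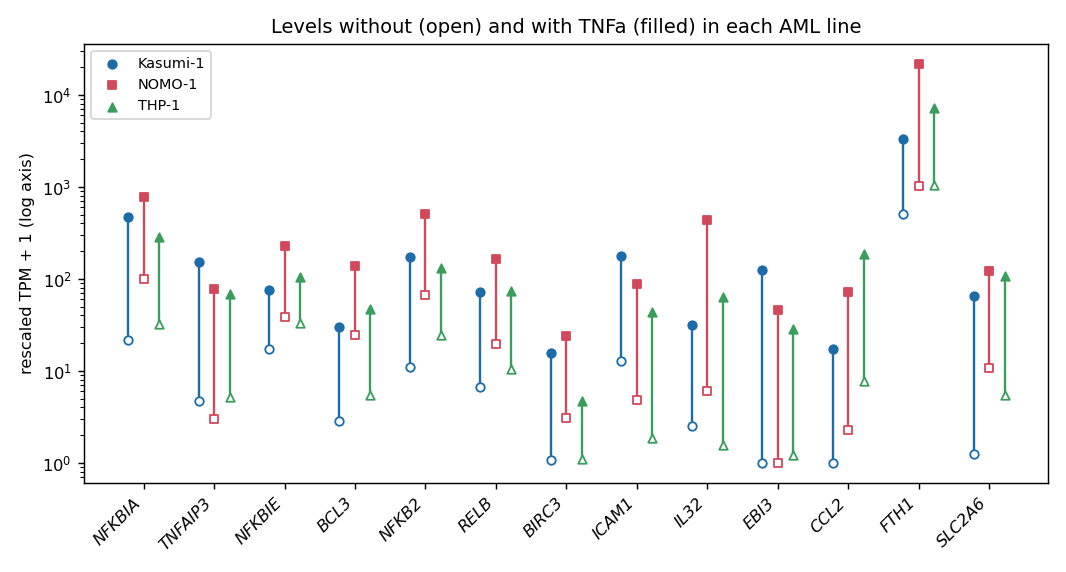
Rescaled TPM plus 1, on a log axis, of 13 named genes in each AML line, with open symbols for the untreated library and filled symbols for the TNFa library. For ICAM1 the filled symbols stand at 174, 87.2 and 43.1 TPM and the open ones at 11.8, 3.82 and 0.851 TPM, and in every gene drawn the filled symbol lies above the open symbol of its line.

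NF-κB binds the κB element, whose strict form used here is GGGA, any base, then TTTCC, and the promoters of the called genes were searched for it. Promoters here are RefSeq windows of 300 bases on GRCh38.p14, from 250 bases before to 50 after a gene's start, and 32 of the 44 genes had an entry. Of these, 5 held this strict motif on either strand (15.6%), namely IL32, NFKB2, NFKBIA, TNFAIP3 and GHRL. It was in 88 of the 11407 tested genes with an entry (0.771%) and in 0.558% of all 35116 windows. The looser κB consensus, which includes the stricter motif, was in 14 of the 32 (43.8%), in 17.4% of the tested genes and in 11.3% of all windows. A match is a description of the letters and shows no binding. The windows of 4 of the 5 genes, which are among the genes of the response described here, are printed 5′ to 3′ on the strand of the gene. The match is in capitals. Whether the transcripts that rose start in these windows was not tested.
NFKBIA, chr14:35404700-35404999, minus strand: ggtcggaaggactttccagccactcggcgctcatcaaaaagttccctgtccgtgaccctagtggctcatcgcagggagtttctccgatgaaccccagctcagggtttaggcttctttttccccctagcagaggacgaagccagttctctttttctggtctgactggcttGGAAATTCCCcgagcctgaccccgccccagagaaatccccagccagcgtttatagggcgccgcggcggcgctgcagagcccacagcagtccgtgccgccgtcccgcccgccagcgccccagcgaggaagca
TNFAIP3, chr6:137867009-137867308, plus strand: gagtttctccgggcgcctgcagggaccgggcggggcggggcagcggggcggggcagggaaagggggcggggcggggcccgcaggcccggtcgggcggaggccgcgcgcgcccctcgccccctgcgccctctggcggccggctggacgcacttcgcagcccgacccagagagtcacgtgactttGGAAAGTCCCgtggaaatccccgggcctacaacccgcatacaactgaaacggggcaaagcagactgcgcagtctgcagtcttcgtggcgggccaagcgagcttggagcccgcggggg
NFKB2, chr10:102395455-102395754, plus strand: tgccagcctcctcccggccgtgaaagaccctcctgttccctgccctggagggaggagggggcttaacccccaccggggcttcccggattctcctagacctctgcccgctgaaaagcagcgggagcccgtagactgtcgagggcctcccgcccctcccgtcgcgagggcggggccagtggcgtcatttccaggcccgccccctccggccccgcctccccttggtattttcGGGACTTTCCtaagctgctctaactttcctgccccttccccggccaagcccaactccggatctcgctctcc
IL32, chr16:3065153-3065452, plus strand: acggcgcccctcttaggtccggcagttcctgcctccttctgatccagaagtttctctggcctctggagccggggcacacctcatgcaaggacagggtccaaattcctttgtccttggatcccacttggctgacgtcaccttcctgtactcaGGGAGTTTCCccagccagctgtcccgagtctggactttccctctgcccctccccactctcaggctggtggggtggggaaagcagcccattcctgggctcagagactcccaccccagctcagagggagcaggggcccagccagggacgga
The match begins 81 bases before the start in NFKBIA and 67 in TNFAIP3, both reading on the opposite strand, and 21 in NFKB2 and 99 in IL32, both on the strand of the gene.

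Chemokine genes held some of the largest estimates, although few of them passed the test. Of 23 tested chemokines CCL2 alone was called (4.35%), with a median change over the list of 0.85. CCL2, the monocyte attractant MCP-1, went from 0, 1.29 and 6.7 TPM in untreated Kasumi-1, NOMO-1 and THP-1 to 16.3, 71.3 and 183 TPM (4.56 ± 0.65, limma adjusted p = 0.011; 0.043 with the 12 AML libraries alone and 0.138 without THP-1). CXCL8, the neutrophil attractant IL-8, went from 44.2, 5.24 and 2.14 TPM to 232, 214 and 53.8 TPM, and the groups did not overlap. It missed the threshold (3.87 ± 0.75, limma adjusted p = 0.064) and passed it without Kasumi-1 (4.62, adjusted p = 0.012). CCL4, the attractant MIP-1β, was near 0 without TNFa and reached 1.44, 13 and 3.27 TPM (2.31 ± 0.47, adjusted p = 0.080). CCL5 was already at 77.5, 341 and 162 TPM without TNFa and stood at 373, 798 and 354 TPM with it (1.53 ± 0.68, adjusted p = 0.509).

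Of 23 tested cytokines and TNF superfamily ligands, EBI3 and IL32 were called (8.7%), both higher, with a median over the list of 0.36. EBI3 encodes the subunit shared by IL-27 and IL-35. It was at 0, 0 and 0.225 TPM without TNFa and at 124, 44.9 and 27.2 TPM with it, the largest estimate among all called genes (5.67 ± 0.79, limma adjusted p = 0.009; 0.082 without THP-1). IL32, an intracellular and secreted inflammatory mediator, went from 1.52, 5.03 and 0.546 TPM to 30.2, 435 and 62 TPM (5.05 ± 0.64, limma adjusted p = 0.006; 0.092 without THP-1). NOMO-1 had by far the highest level of IL32 with TNFa, and Kasumi-1 the highest of EBI3. Both genes were also called with the 12 AML libraries alone (adjusted p = 0.043 for both). IL1B, the inflammasome substrate, went from 0.266, 0.807 and 1.04 TPM to 9.82, 34 and 21.6 TPM without overlap of the groups, and was not called (3.61 ± 0.88, adjusted p = 0.181).

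Among adhesion and leukocyte surface genes, 1 of 31 tested was called (3.23%), ICAM1, the ligand of leukocyte β2 integrins. ICAM1 (chromosome 19) went from 11.8, 3.82 and 0.851 TPM in untreated Kasumi-1, NOMO-1 and THP-1 to 174, 87.2 and 43.1 TPM (4.18 ± 0.38, limma adjusted p = 3.8e-04). Its call held without each of the 3 AML lines and without either endothelial line, with limma adjusted p between 0.005 and 0.020. It also held with the 6 libraries of the comparison alone (0.045). ITGB2, the β chain of the integrins that bind ICAM1, stood at 70.9, 627 and 182 TPM without and 240, 1232 and 716 TPM with TNFa (1.56 ± 0.44, adjusted p = 0.262). None of 14 tested TNF receptor superfamily members was called, at a list median of 0.55. The co-stimulatory receptor CD40 came nearest, from 0.241, 0.798 and 5.08 TPM to 24, 56.3 and 16.1 TPM (3.61 ± 0.72, adjusted p = 0.072). TNFRSF4, TNFRSF9 and TNFRSF18, receptors best known from activated T cells, reached 29.4, 19.1 and 19.4 TPM in NOMO-1 with TNFa, and at most 2.86 TPM in Kasumi-1 and THP-1.

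Survival genes were led by BIRC3, which encodes the ubiquitin ligase cIAP2 and was the only member called of 12 tested (8.33%), at a list median of 0.57. BIRC3 went from 0.0842, 2.04 and 0.0868 TPM to 14.6, 22.8 and 3.67 TPM (2.97 ± 0.49, limma adjusted p = 0.026). The call was lost with the 12 AML libraries alone (limma adjusted p = 0.075), without any of the 3 AML lines and without either endothelial line. Over the line omissions the adjusted p lay between 0.055 without Kasumi-1 and 0.212 without TIME. BCL2A1, an antiapoptotic BCL2 relative, differed in direction between lines, by 2.96 log2 in THP-1, -0.85 in NOMO-1 and 1.34 in Kasumi-1. Of 25 tested cell death genes none was called, and their median was 0.02.

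The iron gene with a called change was that of the ferritin heavy chain. FTH1, which encodes this iron-oxidising subunit of the storage complex, was already abundant and went from 511, 1018 and 1057 TPM in untreated Kasumi-1, NOMO-1 and THP-1 to 3298, 21659 and 7206 TPM (3.29 ± 0.29, limma adjusted p = 3.8e-04). It was called with the 12 AML libraries alone (adjusted p = 0.009) and without each AML line, and missed the threshold without iHUVEC (0.064) or TIME (0.067). FTH1 has many near-identical processed pseudogenes, so its share of reads depends on how the authors' counting resolved them. FTL, the ferritin light chain, stood at 4512, 4326 and 6682 TPM and at 4858, 19671 and 13102 TPM (1.09 ± 0.40, adjusted p = 0.428), and was close to its untreated level in Kasumi-1. The mitochondrial superoxide dismutase SOD2 went from 54.4, 15.2 and 29.4 TPM to 128, 258 and 89.4 TPM without overlap and was not called (2.26 ± 0.50, adjusted p = 0.112). The iron importer SLC11A2 missed narrowly (1.15 ± 0.22, adjusted p = 0.053). FTH1 was the only member called of 21 tested iron and redox genes (4.76%), at a list median of 0.34.

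The remaining called genes included transporters and enzymes. SLC2A6, a sugar transporter of lysosomal membranes, went from 0.254, 9.75 and 4.51 TPM to 63.5, 122 and 107 TPM (4.50 ± 0.46, limma adjusted p = 0.001; 0.021 with the 12 AML libraries alone). It was the only member called of 24 tested genes of glucose transport and glycolysis (4.17%), whose median was -0.06. CTSH, the lysosomal protease cathepsin H, went from 16.5, 64 and 30.2 TPM to 223, 537 and 428 TPM (3.50 ± 0.54, adjusted p = 0.018; 0.242 without THP-1). PSAP, the precursor of lysosomal saposins, was named for its value after the results were seen, and went from 501, 506 and 129 TPM to 1606, 1568 and 462 TPM with overlapping groups (1.72 ± 0.25, adjusted p = 0.015; 0.138 without THP-1 and 0.062 without Kasumi-1). IL4I1, a secreted amino acid oxidase, went from 0.289, 4.13 and 0.95 TPM to 22.9, 165 and 57.8 TPM (4.71 ± 0.77, adjusted p = 0.025). Some of its transcripts share first exons with NUP62, which makes the split of reads uncertain. The IL4I1 call was lost without any of the 3 AML lines and without either endothelial line (adjusted p = 0.061 to 0.212). With the 6 libraries of the comparison alone its adjusted p was 0.045. PLA2G4C, a cytosolic phospholipase A2, went from 2.26, 0.555 and 1.81 TPM to 44.4, 18.9 and 11.5 TPM (3.21 ± 0.50, adjusted p = 0.018; 0.115 without NOMO-1 and 0.058 without Kasumi-1). With the 12 AML libraries alone CTSH, PSAP, IL4I1 and PLA2G4C were not called (adjusted p = 0.091, 0.091, 0.058 and 0.098). All p-values in this paragraph are from limma.

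Further called genes encode signalling, surface and secreted proteins. PDE4B, a phosphodiesterase that breaks down cyclic AMP, went from 1.41, 1.19 and 0.524 TPM to 45.2, 11.2 and 4.86 TPM (2.90 ± 0.47, limma adjusted p = 0.024; 0.112 without NOMO-1 and 0.055 without THP-1). SGK1, a serum- and glucocorticoid-regulated kinase, went from 0.403, 6.59 and 0.612 TPM to 8.42, 50.9 and 6.22 TPM (2.56 ± 0.47, limma adjusted p = 0.042; 0.242 without THP-1 and 0.089 without Kasumi-1). The groups of SGK1 overlapped, because untreated NOMO-1 exceeded THP-1 with TNFa. CHST2, a sulfotransferase that modifies cell surface sugars, went from 0.862, 0.477 and 1.14 TPM to 14.2, 12.9 and 29.4 TPM (3.36 ± 0.49, limma adjusted p = 0.014; 0.186 without THP-1). RTN1, a reticulon of the endoplasmic reticulum, went from 0.785, 0.714 and 0.644 TPM to 15.8, 19.6 and 5.29 TPM (2.92 ± 0.36, limma adjusted p = 0.005; 0.049 with the 12 AML libraries alone). RTN1 was at most 0.0557 TPM in the untreated and TNFa libraries of both endothelial lines. These add almost no spread, so its error in the fit of all 20 libraries may be understated. GHRL, the ghrelin gene, went from 5.29, 5.85 and 3.13 TPM to 58.7, 226 and 16.3 TPM (3.45 ± 0.56, limma adjusted p = 0.025; 0.074 without Kasumi-1 and 0.072 without THP-1), and it overlaps the antisense gene GHRLOS, whose reads may not be separable. NKG7, a cytotoxic granule protein gene, went from 5.05, 136 and 12.3 TPM to 28.5, 296 and 34.9 TPM with overlapping groups (1.61 ± 0.27, limma adjusted p = 0.029; 0.070 without NOMO-1 and 0.211 without THP-1). NKG7 was the only called gene of the 7 tested lymphoid markers (14.3%). CD3D was at 0 in all 6 libraries, while CD79A, also a lymphoid marker, reached 18 TPM in untreated Kasumi-1. NKG7 was at 0 TPM in the untreated and TNFa libraries of both endothelial lines, which add almost no spread, so its error may be understated. With the 12 AML libraries alone PDE4B, SGK1, CHST2, GHRL and NKG7 were not called (limma adjusted p = 0.125, 0.234, 0.086, 0.125 and 0.159).

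**Figure D2:**
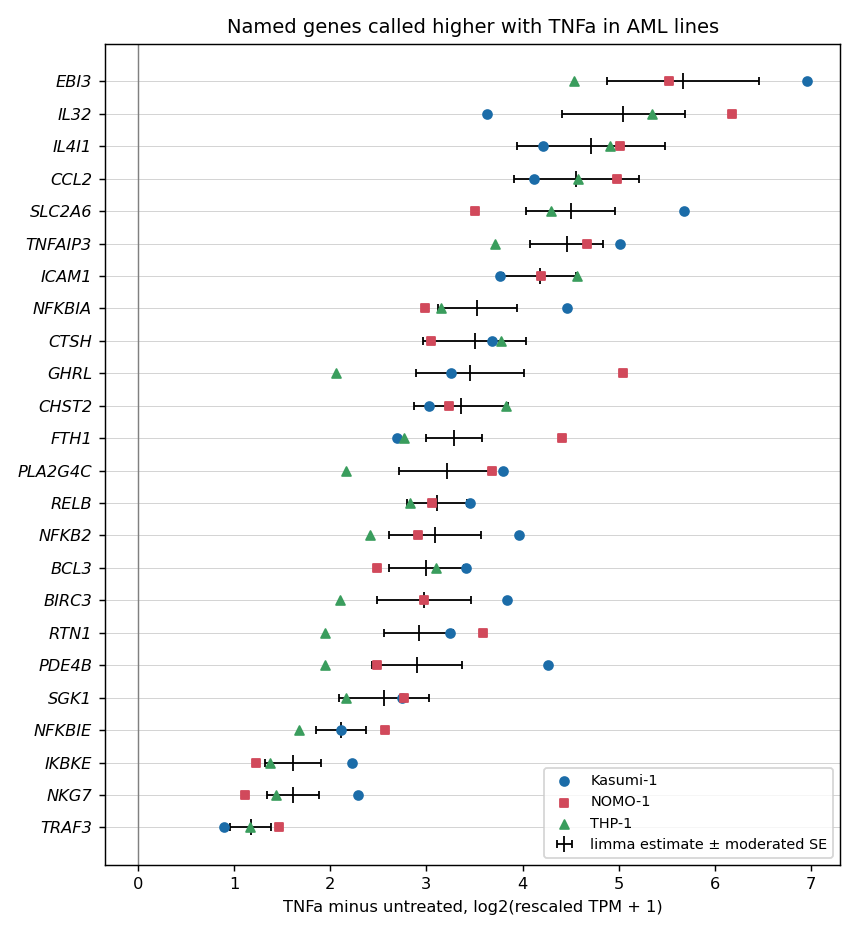
Change in log2(rescaled TPM + 1), TNFa minus untreated, of the 24 genes called higher and named by rule (MUC19, called lower, is not plotted), with a symbol for each AML line and a bar for the limma estimate with its moderated standard error. Every symbol lies to the right of 0, from 0.89 for TRAF3 in Kasumi-1 to 6.96 for EBI3 in Kasumi-1, and the spread between lines is wide for IL32 and GHRL and narrow for RELB and CHST2.

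The other 20 called genes that rose had changes between 0.95 for the cytoskeletal gene SHROOM3 and 2.47 for the Notch ligand DLL4. They included, named after their values were seen, TMSB4X, which encodes the actin-binding thymosin β4 and was at 5380, 8879 and 6639 TPM without and 14738, 21605 and 12729 TPM with TNFa (1.23 ± 0.20, limma adjusted p = 0.026). FCAR, the Fc receptor for IgA, was at 0 in all 3 untreated libraries and at 1.3, 7.3 and 2.07 TPM with TNFa (1.96 ± 0.33, limma adjusted p = 0.029). FCAR was at 0 TPM in the untreated and TNFa libraries of both endothelial lines, which add almost no spread, so its error may be understated. ATG7, an autophagy enzyme, went from 18.6, 33.3 and 16 TPM to 48.1, 59.5 and 36.4 TPM (1.09 ± 0.18, limma adjusted p = 0.027). None of these 3 was called with the 12 AML libraries alone (adjusted p = 0.159, 0.213 and 0.218). All 45 called genes are annotated as protein coding.

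Over the 3 lines together 1 decrease was called. MUC19, a gel-forming mucin gene, went from 9.66, 2.97 and 14.9 TPM to 2.11, 0 and 3.77 TPM and was the only gene called lower (-1.84 ± 0.33, limma adjusted p = 0.040). Its groups overlapped, and the call was lost with the 12 AML libraries alone (adjusted p = 0.261), without Kasumi-1 (0.119) and without THP-1 (0.138). MUC19 was at 0 TPM in the untreated and TNFa libraries of both endothelial lines. There it adds almost no spread to the fit, so its error may be understated. The 4 genes next in order of p among those with lower values were the pseudogene NDUFB4P8 (-1.31), CIB3 (-1.64), D2HGDH (-0.74) and MOSPD3 (-0.75), with adjusted p between 0.080 and 0.102. By contrast with 95 genes that were at least 1 log2 higher in all 3 lines (0.596%), 5 were at least 1 log2 lower in all 3 (0.0314%). MYC, the proliferation-linked transcription factor, stood at 500, 63.1 and 143 TPM and at 371, 7.68 and 133 TPM (-1.14 ± 0.76, adjusted p = 0.662), and the line changes were -0.43, -2.88 and -0.10 log2.

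The lines differed in how many genes passed 1 log2 in either direction. With 1 library per line and condition, these counts carry no test. In Kasumi-1 611 genes were at least 1 log2 higher (3.83%) and 177 lower (1.11%), and in THP-1 471 higher (2.95%) and 246 lower (1.54%). In NOMO-1 1351 were higher (8.48%) and 2278 lower (14.3%), and this split depends on the scaling, with 1974 higher and 1662 lower under median-of-ratios scaling. With the mitochondrial genes kept, 410 were higher and 2065 lower in NOMO-1, and the median of all genes there moved from -0.07 to -0.19. Mitochondrial genes held 76.0% of the listed TPM in untreated NOMO-1 and 80.4% with TNFa, so the other genes rest on the remaining share. Whether noise from this adds to the NOMO-1 counts was not tested. Among the 44 genes called higher the largest change was in Kasumi-1 for 17, in NOMO-1 for 18 and in THP-1 for 9, with line medians of 2.26, 2.52 and 2.08.

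**Figure D3:**
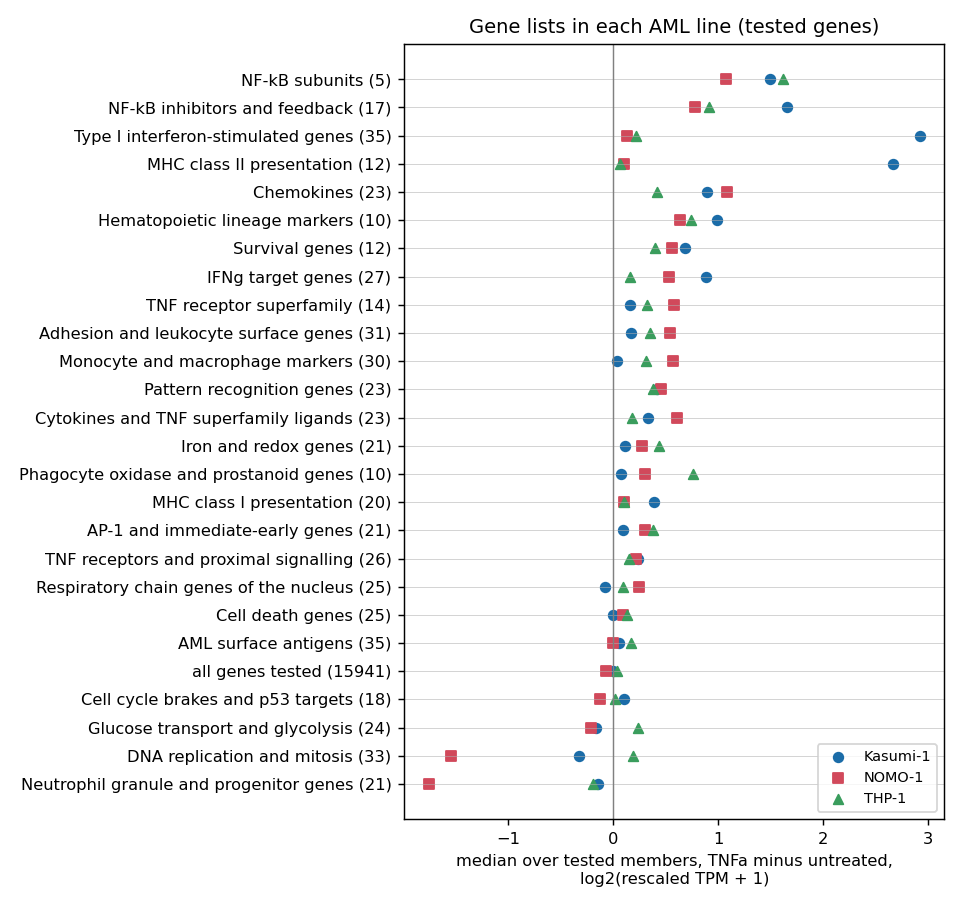
Median change in log2(rescaled TPM + 1), TNFa minus untreated, over the tested members of each gene list (number in brackets), with a symbol for each AML line. The medians of the NF-κB subunits were 1.49, 1.07 and 1.62 in Kasumi-1, NOMO-1 and THP-1, whereas type I interferon-stimulated genes stood at 2.92 in Kasumi-1 and at 0.13 and 0.22 in the other lines.

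Kasumi-1 stood apart from the other AML lines in its interferon-stimulated genes. None of 35 tested type I interferon-stimulated genes was called over the 3 lines, at a list median of 1.12. In Kasumi-1 their median was 2.92 and 32 of the 35 were at least 1 log2 higher, against 6 in NOMO-1 and 4 in THP-1. MX1, an antiviral GTPase, went from 4.71 to 248 TPM in Kasumi-1, from 0.978 to 1.49 TPM in NOMO-1 and from 0.959 to 0.608 TPM in THP-1. OAS1, which makes the activator of the antiviral ribonuclease RNase L, went from 2.93 to 103 TPM in Kasumi-1, from 1.74 to 6.12 TPM in NOMO-1 and from 1.66 to 3.19 TPM in THP-1. The interferon-induced chemokine CXCL10 was at 0 TPM in untreated Kasumi-1 and 81.3 TPM with TNFa, and at most 2.72 TPM in the other lines. IRF1, a direct target of IFNg signalling, stood at 32.8, 16.4 and 18.7 TPM without and at 38.9, 10.6 and 26.3 TPM with TNFa (0.04 ± 0.25, limma adjusted p = 0.997).

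The same line led in MHC class II genes, which present peptides to helper T cells. Their line medians were 0.06 in THP-1, 0.10 in NOMO-1 and 2.66 in Kasumi-1, and none of 12 tested was called. CIITA, the master regulator of the class, went from 2.06 to 41.3 TPM in Kasumi-1, from 18.2 to 39 TPM in NOMO-1 and from 1.06 to 0.321 TPM in THP-1. CD74, the invariant chain, went from 198, 422 and 67.2 TPM to 1932, 1168 and 292 TPM (2.28 ± 0.49, limma adjusted p = 0.106), and passed without NOMO-1 (2.69, adjusted p = 0.039). Values of HLA genes depend on how reads were assigned among similar sequences, and HLA-DQA1 was at 47.4 TPM in Kasumi-1 with TNFa and at most 0.36 TPM in NOMO-1 and THP-1. The surface antigen CD70 went from 0.0659 to 43.2 TPM in Kasumi-1 and stood at 271 and 251 TPM in NOMO-1 and 231 and 346 TPM in THP-1. The largest single value change of Kasumi-1 was the immunoglobulin gene IGKC, from 0 to 127 TPM, with 4.59 TPM in NOMO-1 and 0.97 TPM in THP-1 after TNFa.

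NOMO-1 stood apart in granule and cell cycle genes. Genes of neutrophil granules and granulocytic progenitors had line medians of -0.19 in THP-1, -1.76 in NOMO-1 and -0.15 in Kasumi-1, and none of 21 tested was called. NOMO-1 had 11 of them at least 1 log2 lower, THP-1 had 6 and Kasumi-1 had 0. ELANE, which encodes neutrophil elastase, went from 353 to 2.52 TPM in NOMO-1, from 2904 to 970 TPM in THP-1 and from 1935 to 1690 TPM in Kasumi-1 (-2.81 ± 0.93, limma adjusted p = 0.352). PRTN3, which encodes proteinase 3, went from 316 to 2.39 TPM in NOMO-1, from 1978 to 551 TPM in THP-1 and from 1378 to 798 TPM in Kasumi-1. MPO, which encodes myeloperoxidase, went from 161 to 3.09 TPM in NOMO-1, stood at 6987 and 6305 TPM in Kasumi-1, and went from 1.29 to 0.283 TPM in THP-1 (-2.10 ± 0.95, limma adjusted p = 0.514). Of 33 genes of DNA replication and mitosis, 24 were at least 1 log2 lower in NOMO-1 and 0 in each of the other lines. The line medians were 0.19 in THP-1, -1.55 in NOMO-1 and -0.33 in Kasumi-1. TOP2A, the topoisomerase of dividing cells, went from 68.8 to 14 TPM in NOMO-1, from 110 to 77.2 TPM in Kasumi-1 and from 123 to 90.1 TPM in THP-1. In THP-1 its change of -0.45 log2 was the lowest of the list, whose members there reached 0.93. The mitochondrial share was 76.0% and 80.4% in the same NOMO-1 libraries, and the part of that shift in these values was not tested.

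The largest change in both NOMO-1 and THP-1 was that of MMP9, a gelatinase of migrating leukocytes, from 0.755 to 542 TPM in NOMO-1 and from 0.234 to 68.7 TPM in THP-1, and reached 0.612 TPM in Kasumi-1. Over the 3 lines it was not called (4.93 ± 1.18, limma adjusted p = 0.171), and without Kasumi-1 it was (7.05, adjusted p = 0.004). FSCN1, an actin-bundling protein of dendritic cells, went from 1.13 to 252 TPM in NOMO-1, from 120 to 402 TPM in Kasumi-1 and from 111 to 241 TPM in THP-1. CD14, the lipopolysaccharide co-receptor of monocytes, went from 3.41 to 43.7 TPM in NOMO-1 and from 1 to 9.24 TPM in THP-1, and was at most 0.186 TPM in Kasumi-1. ADAMDEC1, a protease of macrophages and dendritic cells, went from 0.0975 to 36.6 TPM in THP-1, 5.19 to 23.3 TPM in NOMO-1 and 0 to 7.17 TPM in Kasumi-1 (3.37 ± 0.73, adjusted p = 0.108). None of 30 tested monocyte and macrophage markers was called, at a list median of 0.43. Other entries among the 5 largest changes of a line were the pseudogenes TAF9P3 and SRP9P1, DDX39B in the MHC region and the histone gene HIST2H2AA4, which has a near-identical copy, and their values depend on read assignment.

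**Figure D4:**
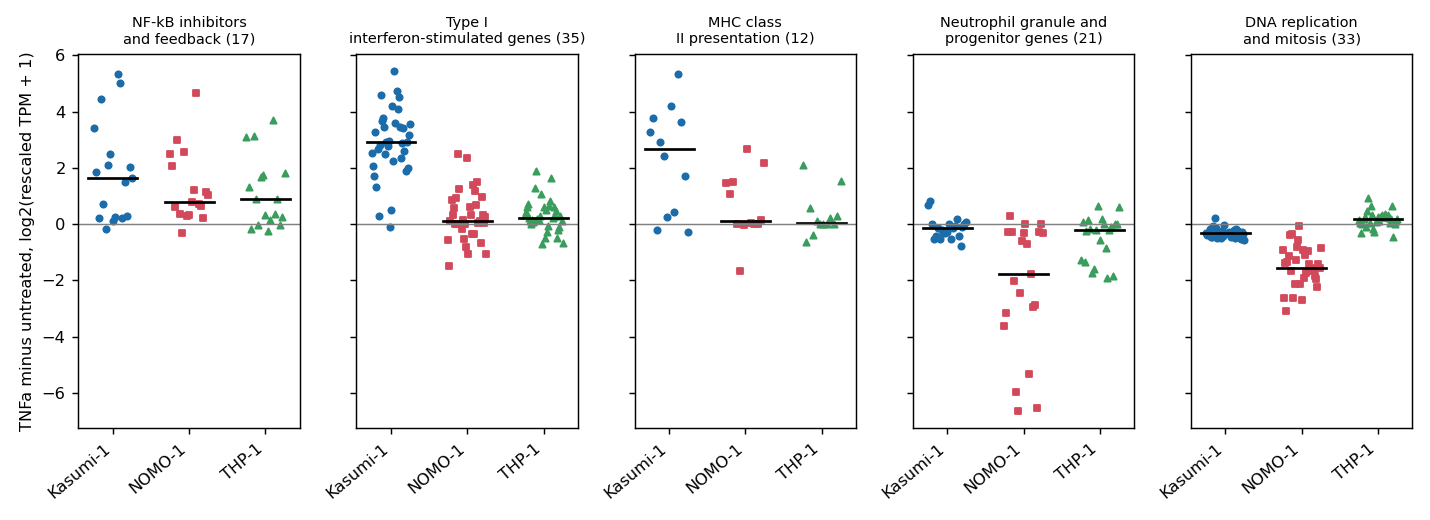
Change in log2(rescaled TPM + 1), TNFa minus untreated, of each tested member of 5 gene lists (number in brackets) by AML line, with black bars for the median. NF-κB inhibitors had positive medians in all 3 lines (1.65, 0.78 and 0.91), the interferon and MHC class II panels had their highest median in Kasumi-1, and the granule and mitosis panels their lowest in NOMO-1.

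None of 35 tested surface antigens used or studied as AML targets was called, and their median was -0.01. CD33 stood at 19.4, 167 and 65.1 TPM in untreated Kasumi-1, NOMO-1 and THP-1 and at 19.1, 95.4 and 76.8 TPM with TNFa (-0.20 ± 0.27, limma adjusted p = 0.866). IL3RA, the interleukin-3 receptor chain CD123, stood at 5.13, 17.5 and 4.79 TPM and at 7.19, 25.4 and 5.52 TPM (0.37 ± 0.38, adjusted p = 0.796). CLEC12A, another myeloid antigen, stood at 2.1, 37.5 and 3.6 TPM and at 1.63, 10.2 and 3.26 TPM (-0.71 ± 0.30, adjusted p = 0.491). The maturation marker CD83 stood at 8.92, 2.9 and 1.37 TPM and at 36.8, 4.59 and 11.1 TPM (1.60 ± 0.72, adjusted p = 0.512), and CDKN1A, the cell cycle inhibitor p21, at 0.519, 4.55 and 9.94 TPM and at 0.933, 15.4 and 25.9 TPM (1.07 ± 0.72, adjusted p = 0.662).

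The effect of TNFa on top of IFNg was measured in libraries outside the comparison, as both cytokines against IFNg alone in the same 3 lines. These libraries share lines and the fit's spread with the main comparison but no library. The 44 genes were called with that same error, which favours the overlap given here. There 346 genes were called higher (2.17%) and 814 lower (5.11%). Of the 44 genes 31 were called higher, 70.5% of the 44 and 8.96% of the 346, and all 44 had a higher value, with a median of 1.69. FTH1 differed by 4.01 ± 0.29 (limma adjusted p = 4.0e-05), IL32 by 7.29 ± 0.64 (2.3e-04), NFKBIA by 4.08 ± 0.41 (6.2e-04) and TNFAIP3 by 3.81 ± 0.38 (6.2e-04). MUC19 was lower there as well (-1.58 ± 0.33, adjusted p = 0.019). GHRL (0.98 ± 0.56, adjusted p = 0.316), CHST2 (0.72 ± 0.49, 0.412) and DLL4 (0.16 ± 0.44, 0.886) were not called on top of IFNg, and whether their responses differ between the settings was not tested. CXCL8, SOD2, CD40, IL1B and NFKB1, which missed the threshold with TNFa alone, were called on top of IFNg (3.19 ± 0.75, 3.51 ± 0.50, 3.38 ± 0.72, 4.31 ± 0.88 and 1.45 ± 0.27, with adjusted p of 0.029, 0.004, 0.021, 0.018 and 0.013), as was CCL4 (6.36 ± 0.47, adjusted p = 4.0e-05). Of the granule and progenitor genes 5 of 21 were called lower, among them PRTN3 (-3.28 ± 0.78, adjusted p = 0.031), CTSG (-4.10 ± 0.77, 0.013) and AZU1 (-2.29 ± 0.61, 0.043). PRTN3, CTSG and CCL4 were at 0 TPM in the untreated and TNFa libraries of both endothelial lines. Such libraries add almost no spread to the fit, so the errors of these genes may be understated. Of the replication and mitosis genes 25 of 33 were called lower, with a median of -1.63 against -0.10 for all genes. The count of 1160 called genes was 200 with the 12 AML libraries alone, 318 without Kasumi-1, 521 without THP-1, and 52 and 53 without iHUVEC and TIME. The split moved with the scaling, to 560 higher and 377 lower under median-of-ratios scaling and 184 higher and 922 lower with the mitochondrial genes kept, and it was 556 and 602 without NOMO-1.

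IFNg alone gave a contrast to TNFa in the same lines. Comparing the TNFa with the IFNg libraries, which reuses the TNFa libraries but not the untreated ones, 64 genes were called higher with TNFa (0.401%) and 92 lower (0.577%). With mitochondrial genes kept the split was 34 higher and 76 lower. Among the 44 genes 30 were called higher than with IFNg, 68.2% of the 44 and 46.9% of the 64. The 44 were chosen for high values in these same TNFa libraries, which favours this overlap. The difference was 4.18 for SLC2A6 (limma adjusted p = 8.3e-04), 3.79 for TNFAIP3 (5.9e-04), 3.57 for NFKBIA (0.001) and 2.65 for FTH1 (8.1e-04). ICAM1 was not called between the cytokines (1.29, adjusted p = 0.182), and IFNg alone raised it by 2.89 ± 0.38 (adjusted p = 0.002). BCL3 rose with IFNg as well (2.22 ± 0.39, adjusted p = 0.016). IRF1 was lower with TNFa than with IFNg, by -4.23 (limma adjusted p = 7.0e-06). Without THP-1 the count of 156 called genes was 68, without iHUVEC 40 and without TIME 40.

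In the endothelial lines the same treatment called 93 genes higher (0.583%) and 24 lower (0.151%). The AML changes are not taken from these libraries, but the errors of the AML calls are in part. This shared error favours an overlap of the calls. Of the 44 genes 12 were called higher in endothelium, 27.3% of the 44 and 12.9% of the 93, and 36 had a higher value. Among the shared calls were CCL2 (8.77 ± 0.79, limma adjusted p = 1.3e-04), ICAM1 (5.81 ± 0.46, 5.3e-05), BIRC3 (5.48 ± 0.60, 8.8e-04), TNFAIP3 (3.98 ± 0.47, 0.001) and RELB (3.30 ± 0.37, 0.001). The difference of the responses was tested in the same fit and called 25 genes (0.157%), 8 with a higher value for AML lines (0.0502%) and 17 with a lower one (0.107%). FTH1 was the only one of the 44 among them, with 3.29 ± 0.29 in AML lines against 0.49 ± 0.36 in endothelial lines, a difference of 2.80 ± 0.46 (limma adjusted p = 0.032). Its level in iHUVEC and TIME was already 5478 and 4704 TPM untreated, and 7882 and 6405 TPM with TNFa. The part of this higher untreated level in the difference was not tested. CCL2 did not differ past the threshold (-4.21 ± 1.02, adjusted p = 0.263). Of the 44 genes, 5 were below 1 TPM in all 8 endothelial libraries, where they add almost no spread to the fit, so their errors in AML lines are understated. Leaving out THP-1 took the 25 calls to 6, leaving out Kasumi-1 or NOMO-1 to 10 each, and leaving out TIME to 59.

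**Figure D5:**
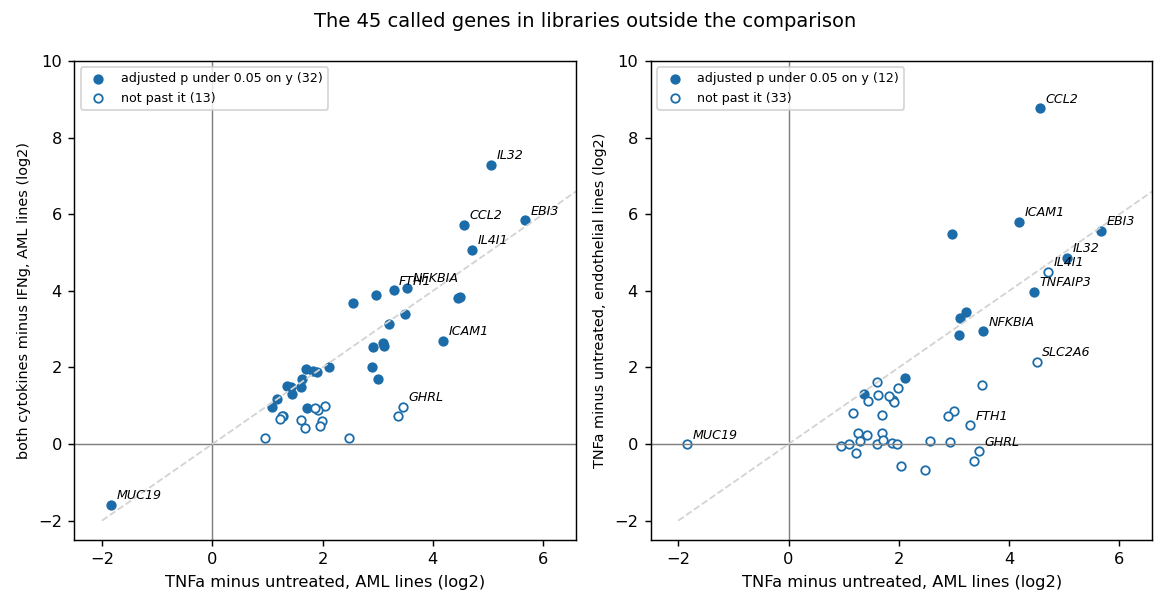
Estimates for the 45 called genes on the log2(rescaled TPM + 1) scale, with TNFa minus untreated in AML lines on the x axes. The y axes show both cytokines minus IFNg in AML lines (left, 32 filled points past the threshold) and TNFa minus untreated in endothelial lines (right, 12 filled points); the dashed line marks equal values.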

How the data were processed

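RNA levels of 3 AML and 2 endothelial lines, untreated or treated with cytokines, were deposited by the authors as TPM, which is corrected for transcript length and totals about a constant, in tables of 35168 genes and 170068 transcripts. The submitters' processing notes name Salmon 1.2.0, DESeq2 1.28.1 and GRCh38.p13, with no roles; they name no version of the gene annotation. Columns marked x2 were read as both cytokines, the only treatment left without a column. TPM keeps no depth, so no counting intervals are given.

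TPM was rescaled to 1000000 without the 13 MT- genes. Genes at 1 TPM or more in at least 2 libraries were tested on log2(TPM + 1), which understates changes of low genes, with limma 3.58.1 (trend; R 4.3.3), tested on simulated data, in a fit of all 20 libraries with terms for line and treatment within cell type (9 residual degrees of freedom, 3.58 added by moderation). The labels pair libraries by line, and deviations of such pairs from group means correlated at 0.648 to 0.882. Python 3.11.15, pandas 2.3.3 and matplotlib 3.10.9 made tables and figures. Symbols came from a gene name table (35051 IDs) and GENCODE v29 (110), and 7 IDs had none. Alternatives changed the scaling, pseudocount, filter, trend, line term and libraries, leaving out each line in turn.

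The comparison, its 28 gene lists and the tests were chosen with earlier results of these data known. The rule named the 20 largest called genes with the same direction in all lines, every called list member, the 5 lowest p among lower genes, the 5 largest changes of each line and 20 fixed genes of the pathway and of leukemia. Every other gene given with a value was chosen after its values were seen.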

Additional observations from a re-analysis of the deposited data

Results flagged for a closer look

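The response to TNFa differed between AML and endothelial lines, by a test of the difference in limma, for 6 of the genes named by rule or on a gene list. FTH1, the ferritin heavy chain, changed more in AML lines by 2.80 log2 (adjusted p = 0.032), from a lower untreated level than the 5478 and 4704 TPM of iHUVEC and TIME. The endothelial sialomucin EMCN differed by 2.58 log2 (adjusted p = 0.049), with 0 TPM in all 6 AML libraries and a decrease of -2.58 ± 0.35 in endothelial lines. The interferon regulatory factor IRF1 differed by -2.43 log2 (adjusted p = 0.030), with 0.04 ± 0.25 in AML and 2.47 ± 0.30 in endothelial lines. The chemokines CX3CL1 and CXCL5 and the growth factor CSF2 differed by -5.35 (adjusted p = 0.030), -4.57 (4.7e-06) and -5.07 (6.0e-05). These 3 genes were at or near 0 in the 6 AML libraries, at most 0.0761 TPM. Like EMCN, they add almost no spread from AML lines to the fit, so the errors of these differences are understated.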

How the results depend on the processing

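No named gene that was called changed direction under any alternative run; calls did change. The 45 calls of TNFa against untreated became 13 with mitochondrial genes kept, 24 with a pseudocount of 5, 18 without a filter, 16 with the AML libraries alone and 4 with the 6 libraries alone. They were 54 under median-of-ratios scaling, 56 with a pseudocount of 0.1, 45 with the 5 TPM filter and 43 without the trend. Without the replicate block, that is without the term for the line that pairs the libraries, calls were 2 for TNFa against untreated, 5 for AML minus endothelial, 21 for TNFa against IFNg, 15 for TNFa added to IFNg and 2 of the 16 list members. Leaving out 1 line at a time gave 2 to 57, 6 to 59, 40 to 123, 52 to 1158 and 2 to 17 in the same order. The 25 calls of AML minus endothelial became 39 with mitochondrial genes kept, 14 under median-of-ratios scaling, 8 and 43 with pseudocounts of 0.1 and 5, and 43 without a filter. Without a filter the other comparisons gave 89 and 602 calls and 10 list members, and with the AML libraries alone 83 and 200. List members called were 9 with mitochondrial genes kept and 2 with the 6 libraries alone. With a pseudocount of 0.1, added after the data were seen, genes at least 1 log2 higher and lower were 1240 and 615 in Kasumi-1 and 1116 and 715 in THP-1, with 2305 higher in NOMO-1, where 410 were higher with mitochondrial genes kept. Leaving out a line turned the direction of some genes that were not called: CD33 (-0.41 to 0.11), SRP9P1 (-0.85 to 2.62), IRF1 (-0.17 to 0.35, with -0.05 without Kasumi-1) and REL (-0.11 to 0.33). The cause of these shifts was not tested. A TPM table gives no depth, so what depth limits is unknown, and the 12 genes without a promoter entry were not searched.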

Other observations

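Gene lists not described above held few or no calls with TNFa alone. IFNg target genes had 1 called of 27 tested, ICAM1, and a median of 0.55. MHC class I presentation had 0 of 20 (median 0.30), pattern recognition genes 0 of 23 (0.38) and phagocyte oxidase and prostanoid genes 0 of 10 (0.34). AP-1 and immediate-early genes had 0 of 21 (0.29), and on top of IFNg 8 of them were called higher with TNFa, among them JUN (2.0 ± 0.38, limma adjusted p = 0.013) and JUNB (2.12 ± 0.38, adjusted p = 0.011). Cell cycle brakes and p53 targets had 0 of 18 (-0.02), and CDKN1A was called on top of IFNg (3.83 ± 0.72, adjusted p = 0.013). Nuclear respiratory chain genes had 0 of 25 (0.09), hematopoietic markers 0 of 10 (0.82), endothelial markers 0 of 14 (-0.00), and epithelial and fibroblast markers 0 of 8 (0.20).

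The deposited transcript table gave the share of each called gene's TPM by transcript. The leading transcript, that with the highest mean TPM over the 6 libraries, held at least 50% in all 3 TNFa libraries for 19 of the 45 called genes and at least 90% for 9, and it was protein coding for 41. ICAM1-201 held 98.9, 99.3 and 93.2% of ICAM1 with TNFa in Kasumi-1, NOMO-1 and THP-1, and PDE4B-203 held 91.5, 97.2 and 96.7% of PDE4B. NFKBIA-201 held 81.5, 84.5 and 85.5% of NFKBIA. For GHRL the leading transcript was GHRL-214, annotated as a retained intron, at 19.7, 40.3 and 6.25%, while the protein-coding GHRL-202 stood at 42, 4.04 and 19.4% and so above it in Kasumi-1 and THP-1. For CTSH it was CTSH-202, annotated as subject to nonsense-mediated decay, at 29.3, 76.8 and 38.1%, and CTSH-214, annotated as a processed transcript, was above it in Kasumi-1 (39.6, 5.61 and 33.2%). MUC19, the gene called lower, was led by MUC19-204, annotated as a processed transcript, and then MUC19-211, annotated as a retained intron. BIRC3-201 held 24, 91.7 and 2.87% of BIRC3, so the transcript assigned to the increase differed between lines. Such shares are estimates from overlapping sequences and no test was made.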
